A study of Danio rerio with 6 samples.

Results

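The 10 genes followed here act upstream of or beside aromatase in steroid synthesis, and their transcripts were measured in adult male zebrafish. The tissue was the telencephalon, which lies at the front of the brain. They are cyp17a1, srd5a2a, srd5a3, hsd3b2, hsd11b2, hsd17b10, hsd11b1la, tspo, stard3 and pora, and every probe set whose single platform symbol was one of these was taken, which gave 13 of the 15502 probe sets tested and 10 of the 8793 genes with a symbol of their own. The fadrozole group came from sexually mature males exposed to 200 µg/L of fadrozole, a non-steroidal aromatase inhibitor, for 10 days, and the control group from males whose labels name no exposure and no vehicle. Each group had 3 arrays, each hybridised with RNA from a pool of about 30 telencephalons, and the labels give no strain or age. Nothing in the labels says whether the pools of a group came from separate tanks, so p-values measure only the spread between these arrays.

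Steroid hormones are made from cholesterol. Carriers such as StAR-related proteins bring it towards the mitochondria, side-chain cleavage turns it into pregnenolone, and 3-beta-hydroxysteroid dehydrogenases, Cyp17a1 and the 17-beta-hydroxysteroid dehydrogenases lead from there to androgens. Androgens are then turned into estrogens by aromatase, into dihydrotestosterone by steroid reductases, or, in fish, into 11-ketotestosterone, for which Hsd11b2 carries out the last step. The same Hsd11b2 converts cortisol to inactive cortisone. The fish brain has high aromatase activity in radial glia and can make neurosteroids of its own.

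The deposited values were ratios, each probe set being divided by the median of its control arrays, so they show differences between arrays and not how strongly a gene was expressed. Whether any of these genes gave a signal above background could not be checked. Levels below are log2 of that ratio with each array's overall shift removed. Differences are fadrozole minus control on the log2 scale, with their standard error from limma after ±. Where genes or probe sets are compared with each other within arrays, the standard error instead comes from the spread within each group, without limma. The n is 3 arrays per group unless given. In these pools fewer cells of a type and less RNA per cell cannot be told apart.

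None of the 13 probe sets passed limma's test at an adjusted p of 0.05. Of all 15502 probe sets, 0 passed (0%). The adjusted p was 0.9994 for each of the 13. At an unadjusted p under 0.05 there was 1 of 13, a probe set of the steroid reductase srd5a2a that was higher on the fadrozole arrays, against 4.23% of all probe sets in either direction and 2.17% higher. On 3 of the 13 the fadrozole arrays did not overlap the control arrays, against 7.83% of all probe sets. Of the 3, the srd5a2a probe set was higher, as were 3.90% of all probe sets without overlap, and the dehydrogenase hsd3b2 and 1 probe set of srd5a3 were lower, as were 3.93%. The genes did not move one way, with 7 probe sets higher (49.9% of all probe sets were) and 6 lower and a median difference of 0.02, where all probe sets had a median of -0.002. Their differences had a median size of 0.58, against 0.31 for all probe sets, and their standard errors a median of 0.57, against 0.48. The members were chosen with results of these arrays known, so nothing particular to them is read from these counts.

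**Figure D1:**
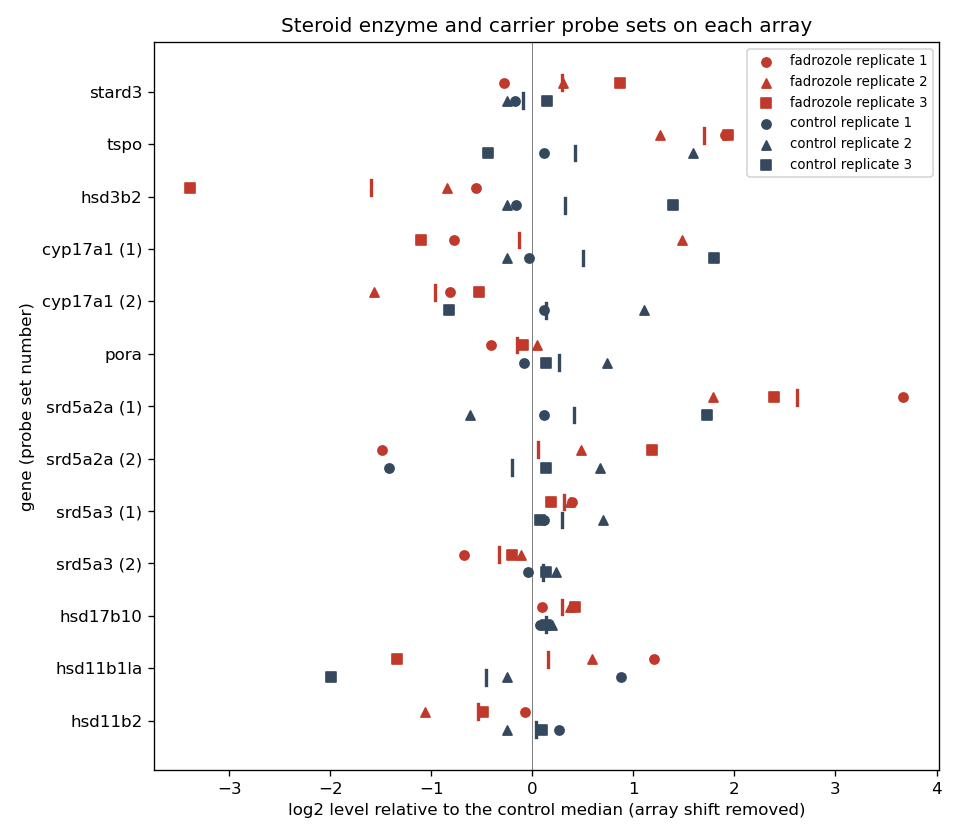
Log2 level relative to the control median (x axis, array shift removed) of each of the 13 probe sets (y axis) on each array, with fadrozole arrays in red above control arrays in dark blue, a marker shape per replicate number and a vertical bar at each group's mean. The fadrozole arrays lie wholly above the control arrays for srd5a2a (1), and wholly below them for hsd3b2 and srd5a3 (2).

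Of the cholesterol carriers, tspo encodes the translocator protein of the outer mitochondrial membrane, which binds cholesterol and whose need in steroid synthesis is debated. Its level was 1.90, 1.26 and 1.94 on fadrozole replicates 1, 2 and 3, against 0.11, 1.59 and -0.44 on control replicates 1, 2 and 3. All 3 fadrozole arrays were high, but control replicate 2 lay among them. The difference was 1.28 ± 0.58 (95% interval -0.13 to 2.70), and the unadjusted limma p was 0.0683. It was 2.09 between the 2 fadrozole and 2 control arrays of the larger run of slide numbers and -0.33 between the 2 arrays of the smaller run. Without control replicate 2 the difference was 1.87, with a limma p of 0.00493 unadjusted and 0.483 adjusted. Without control replicate 3 it was 0.85, with an unadjusted limma p of 0.187, and with quantile normalisation it was 0.84, with an unadjusted limma p of 0.319. The endosomal cholesterol-binding protein gene stard3 ran from -0.28 to 0.86 on the fadrozole arrays and from -0.25 to 0.15 on the control arrays. Its groups overlapped, with a difference of 0.39 ± 0.37 that ran from 0.10 to 0.68 as arrays were left out in turn.

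The slide numbers in the labels form these 2 runs, the larger with replicates 1 and 3 of both groups and the smaller with replicate 2 of both. The difference had the same sign in both runs for 9 of the 13 probe sets, against 48.8% of all probe sets. It turned for tspo, for 1 probe set of cyp17a1, for the second probe set of srd5a2a and for the first of srd5a3.

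**Figure D2:**
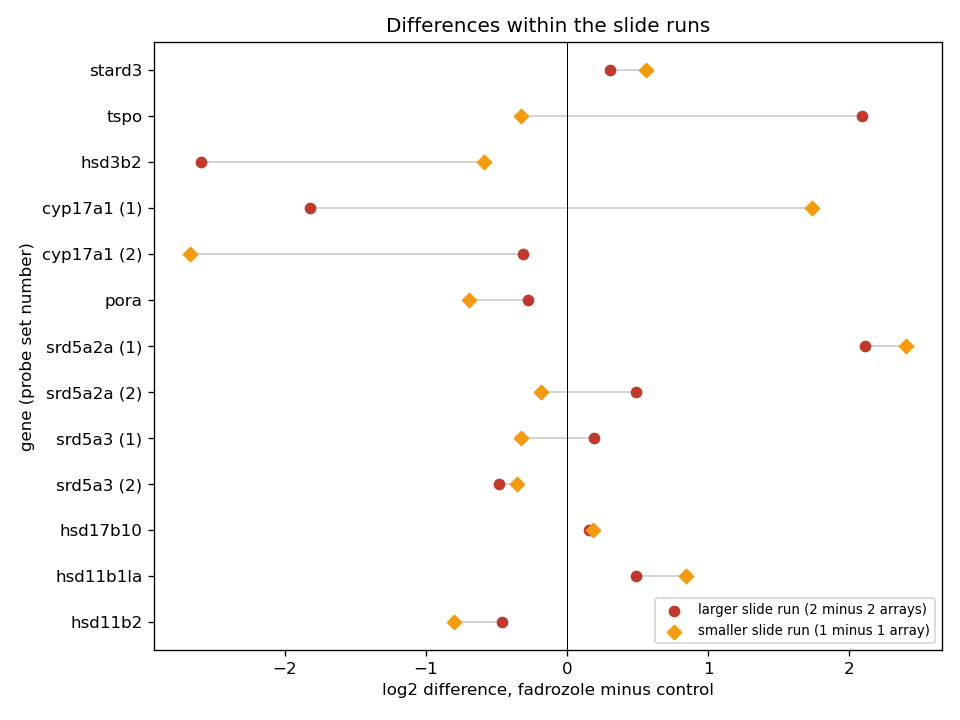
Log2 difference, fadrozole minus control (x axis), of each probe set (y axis) within the larger slide run (red circles, 2 minus 2 arrays) and the smaller one (orange diamonds, 1 minus 1 array), joined by a grey line. For cyp17a1 (1) the runs stand at -1.82 and 1.73, while for srd5a2a (1) they stand at 2.11 and 2.4.

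Among the enzymes upstream of androgens, hsd3b2 belongs to the family that turns pregnenolone into progesterone. Its level was -0.56, -0.84 and -3.39 on fadrozole replicates 1, 2 and 3, against -0.16, -0.25 and 1.39 on control replicates 1, 2 and 3. The groups did not overlap, but the lowest fadrozole array and the highest control array, both replicate 3, stood far from the others. As deposited, that fadrozole array was at a ratio of 0.0894 and that control array at 2.39. The difference was -1.92 ± 0.89 (95% interval -4.10 to 0.25), with an unadjusted p of 0.0737 and the exact permutation test, two-sided, gave 0.1, the smallest that 3 against 3 arrays allow. Without fadrozole replicate 3 it was -1.03. It was -2.59 in the larger slide run and -0.59 in the smaller one. Among the differences of all probe sets, ordered from the lowest, it stood at percentile 1.04, and the spread between its arrays stood at percentile 81.9.

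The enzyme Cyp17a1, a hydroxylase and lyase of the endoplasmic reticulum, commits the pathway to androgens. Its gene had 2 probe sets that disagreed from array to array. On Dr.25390.1.A1_s_at, whose suffix marks probes shared by several transcripts, the level was -0.78, 1.48 and -1.10 on fadrozole replicates 1, 2 and 3, against -0.03, -0.25 and 1.80 on control replicates 1, 2 and 3. The other, Dr.6650.1.S1_at, was at -0.81, -1.57 and -0.52 on the fadrozole replicates in that order, against 0.11, 1.11 and -0.83 on the control replicates. The array highest in its group on the first, fadrozole replicate 2 or control replicate 3, was the lowest in its group on the second. The groups overlapped on both, with differences of -0.64 ± 0.88 and -1.10 ± 0.57. The first turned to 0.010 without control replicate 3.

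The mean of both cyp17a1 probe sets hid this. It was -0.79, -0.04 and -0.81 on the fadrozole replicates, against 0.04, 0.43 and 0.49 on the control replicates, so that the groups did not overlap, as in 7.82% of all genes. Its SD was 0.44 on the fadrozole arrays and 0.24 on the control arrays (n = 3 each), while on the first probe set alone it was 1.41 on the fadrozole arrays and 1.12 on the control arrays. The unadjusted limma p was 0.0335 for this mean (difference -0.87 ± 0.32, adjusted p 0.9992 over 8793 genes, of which 4.09% had an unadjusted p under 0.05), but 0.498 and 0.104 for the single probe sets. The mean separated the groups where neither probe set did.

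**Figure D3:**
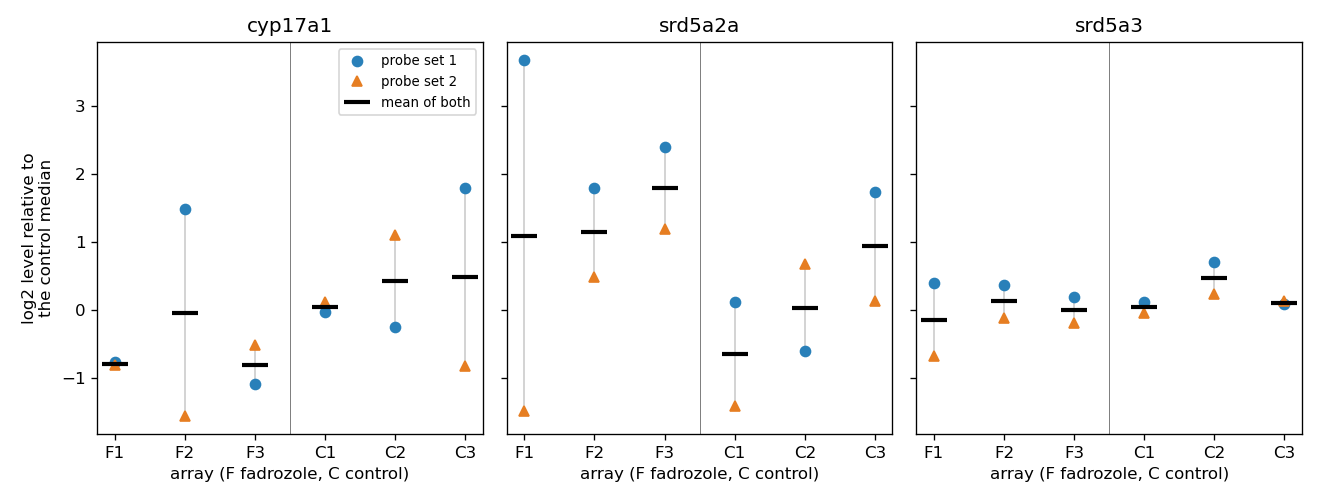
Log2 level relative to the control median (y axis) on each array (x axis, fadrozole arrays F1 to F3 left of control arrays C1 to C3) for the genes with 2 probe sets, as blue circles and orange triangles joined by a grey line, with their mean as a black bar. The 2 probe sets of cyp17a1 stand furthest apart on F2 and C3, and those of srd5a2a stand furthest apart on F1. Those of srd5a3 also stand furthest apart on F1, at 0.39 and -0.68.

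The gene pora encodes the P450 oxidoreductase that passes electrons from NADPH to Cyp17a1, aromatase and other P450 enzymes. It ran from -0.41 to 0.04 on the fadrozole arrays and from -0.08 to 0.74 on the control arrays. The groups overlapped, with a difference of -0.42 ± 0.33 (95% interval -1.23 to 0.39), lower in both slide runs.

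Of the reductases, srd5a2a is named as a type 2 enzyme, the type that in mammals turns testosterone into dihydrotestosterone. On its probe set Dr.9952.1.A1_at the level was 3.67, 1.79 and 2.39 on fadrozole replicates 1, 2 and 3, against 0.11, -0.61 and 1.73 on control replicates 1, 2 and 3. As deposited, fadrozole replicate 1 was at 12.2 times the control median. All fadrozole arrays were higher, although control replicate 3 came close to the lowest of them. The difference was 2.21 ± 0.76, a 4.62-fold higher value with a 95% interval of 1.26-fold to 16.9-fold. The unadjusted limma p was 0.0278, and exact permutation gave 0.1. The difference was 2.11 in the larger and 2.4 in the smaller slide run, and it ran from 1.68 to 2.87 when each array was left out in turn. Its unadjusted limma p then ran from 0.00763 without control replicate 3 to 0.0848 without control replicate 2. That p was 0.0672 in the larger slide run alone and 0.125 with the variance trend. The trend ties the variance to a probe set's mean level. In ratios to the control median that mean moves with the difference itself and does not stand for signal strength. Nothing is therefore read from the p with the trend.

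The second srd5a2a probe set, Dr.9952.2.S1_at, did not separate the groups. It was at -1.49, 0.48 and 1.18 on the fadrozole replicates, against -1.42, 0.67 and 0.14 on the control replicates, and replicate 1 was the lowest array in each group. Fadrozole replicate 1 was thus the highest array on the first probe set and the lowest on the second. The difference was 0.26 ± 0.87 (95% interval -1.86 to 2.38), and it turned to -0.34 without control replicate 1 and to -0.30 without fadrozole replicate 3. For the mean of both probe sets the difference was 1.24 ± 0.47, with a limma p of 0.0388 unadjusted and 0.9992 adjusted. An unadjusted p under 0.05 was reached by 4.09% of all genes. The groups did not overlap on this mean, as in 7.82% of all genes. Its nearest arrays were fadrozole replicate 1 at 1.09 and control replicate 3 at 0.93. The differences of the 2 probe sets were 1.94 ± 1.61 apart, with a two-sided exact permutation p of 0.6, and the cause of their disagreement was not tested. For the probe sets of cyp17a1 they were 0.46 ± 1.6 apart (p 0.7 by the same test). Those of srd5a3, which differed in sign, were 0.46 ± 0.26 apart (p 0.2). Adjusted for the 3 genes, the permutation p was 0.7 for srd5a2a and cyp17a1 and 0.6 for srd5a3.

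The related gene srd5a3 encodes a reductase that in mammals acts mainly on polyprenols, the precursors of dolichol. Its first probe set, Dr.22687.1.S1_at, ran from 0.19 to 0.39 on the fadrozole arrays and from 0.08 to 0.70 on the control arrays. The difference of 0.02 ± 0.29 had no stable sign: it was -0.024 with plain median centring and -0.11 with quantile normalisation. The second, Dr.22687.2.A1_at, was at -0.68, -0.12 and -0.20 on the fadrozole replicates, against -0.04, 0.24 and 0.14 on the control replicates. Here the fadrozole arrays lay below the control arrays, by a narrow gap between the nearest arrays, with a difference of -0.44 ± 0.28 (95% interval -1.14 to 0.26). This held only with the array shifts removed. As deposited the groups overlapped, with fadrozole replicate 2 at a ratio of 1.03 and control replicate 1 at 0.899. Both probe sets varied little between replicates, at percentiles 16.1 and 13.0 of the spread among all probe sets.

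The dehydrogenase gene hsd17b10 encodes a mitochondrial enzyme of isoleucine breakdown that in mammals also acts on steroids. It had the smallest spread of the 13 probe sets, at percentile 2.71 of all. Its level ran from 0.09 to 0.42 on the fadrozole arrays and from 0.07 to 0.19 on the control arrays, and the difference was 0.17 ± 0.25. Its 95% interval of -0.45 to 0.78 corresponds to 0.731-fold to 1.72-fold, the narrowest bounds these arrays gave for any of the 13.

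**Figure D4:**
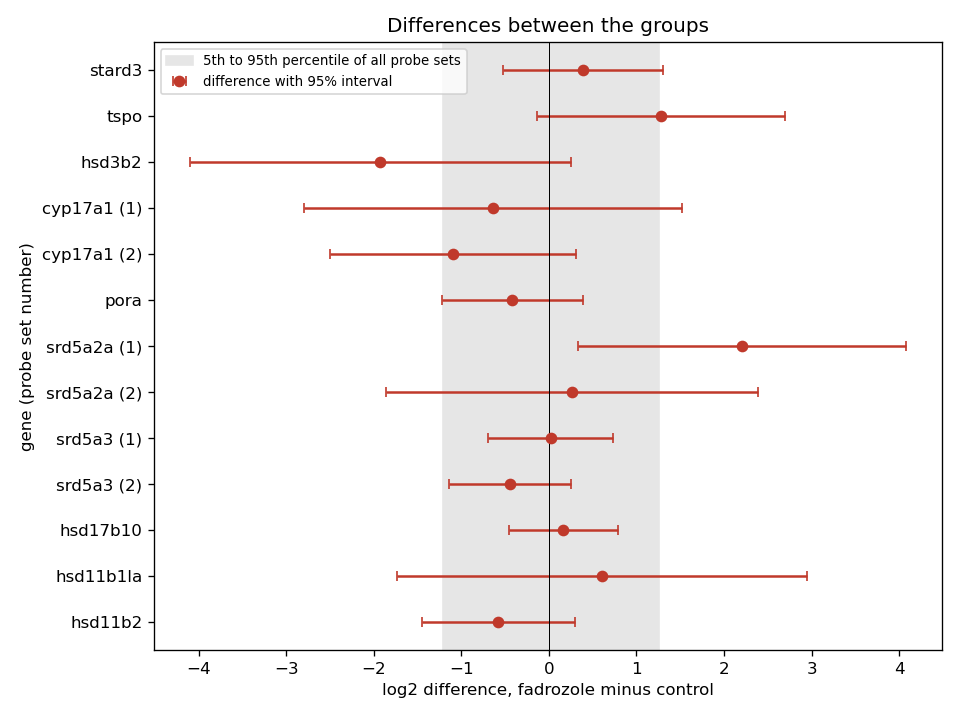
Log2 difference, fadrozole minus control (x axis), of each probe set (y axis) with its 95% interval from limma, over a grey band from the 5th to the 95th percentile of all 15502 probe sets (-1.21 to 1.26). The interval of srd5a2a (1) lies above 0, and the other 12 include it.

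Of the corticoid enzymes, hsd11b2 encodes the dehydrogenase of cortisol inactivation and 11-ketotestosterone synthesis. Its level was -0.07, -1.06 and -0.49 on fadrozole replicates 1, 2 and 3, against 0.27, -0.25 and 0.10 on control replicates 1, 2 and 3. The fadrozole arrays were lower except that replicate 1 lay above control replicate 2. That overlap came with the removal of the array shifts. As deposited the groups did not overlap, with fadrozole replicate 1 at a ratio of 0.908 and control replicate 3 at 0.974. With no shift removed, 7.04% of all probe sets did not overlap. The difference was -0.58 ± 0.36 (95% interval -1.45 to 0.29), with an unadjusted p of 0.156. It was -0.46 in the larger and -0.81 in the smaller slide run. The gene hsd11b1la is named as a relative of the mammalian type 1 enzyme, which regenerates cortisol. Whether the zebrafish enzyme does so was not tested.

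On its probe set hsd11b1la was at 1.2, 0.59 and -1.34 on fadrozole replicates 1, 2 and 3, against 0.88, -0.25 and -1.99 on control replicates 1, 2 and 3. In both groups replicate 1 was the highest and replicate 3 the lowest array, and the spread within each group (SD 1.33 on the fadrozole arrays and 1.45 on the control arrays) exceeded the difference of 0.60 ± 0.96. Between the arrays of the larger slide run the difference was 0.49, and in the smaller one 0.84. It turned to -0.16 without control replicate 3.

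In all, 5 pairs of members were compared within arrays, by the log2 difference of the first gene over the second on each array, with the mean of both probe sets for cyp17a1, srd5a2a and srd5a3. For srd5a2a over srd5a3 this was 1.24, 1.01 and 1.79 on fadrozole replicates 1, 2 and 3, against -0.69, -0.44 and 0.83 on control replicates 1, 2 and 3. The groups did not overlap, and they differed by 1.45 ± 0.52, with a two-sided exact permutation p of 0.1 (0.4 after adjustment for the 5 pairs). As given above, only 1 of the 2 srd5a2a probe sets separated the groups by itself. The other pairs were cyp17a1 over pora at -0.45 ± 0.27, cyp17a1 over hsd3b2 at 1.06 ± 0.95, hsd11b1la over hsd11b2 at 1.18 ± 1.13 and tspo over stard3 at 0.89 ± 0.81. Each had an exact permutation p of 0.2 or 0.4. With 3 against 3 arrays this test cannot give a p below 0.1, so at 0.05 it could not show unequal change within any of the 5 pairs.

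Of a list of 57 other genes of steroid synthesis, 28 were measured, by 36 probe sets, of which 16 were higher and 20 lower, with a median of -0.03. Unadjusted p in limma was under 0.05 for 0 higher and 2 lower probe sets (2.06% of all probe sets were lower at that p). Both were of the brain aromatase gene cyp19a1b, at -2.01 ± 0.28 and -1.13 ± 0.44. Fadrozole inhibits the aromatase enzyme, whereas these values are of transcript. The groups did not overlap on the first of these probe sets but overlapped on the second. The remaining probe set of the gene was at -0.18 ± 0.41, also with overlap. Next by p was the carbonyl reductase gene cbr1l at 1.18 ± 0.65, whose groups did not overlap, with the nearest arrays at 0.32 and 0.30. Of all probe sets, 3.90% were higher without overlap. The sulfotransferase gene sult1st1 followed at -0.99 ± 0.57, with overlap. After these came the other aromatase gene, cyp19a1a, at 0.96 ± 0.58, with overlapping groups. The cholesterol carrier star, which limits the rate of steroid synthesis in endocrine tissue, was at 0.03 ± 0.64. Of 36 genes for steroid receptors and steroid-responsive genes 24 were measured, by 34 probe sets, of which 11 were higher and 23 lower, with a median of -0.16. Under an unadjusted p of 0.05 there was 1 higher probe set, at 1.27 ± 0.51 (2.17% of all probe sets were higher at that p). It belongs to the monoamine oxidase gene mao, whose other 3 probe sets were at 0.94, 0.09 and -0.30. The membrane progestin receptor gene paqr7b was at 0.63 ± 0.28, and its groups did not overlap (3.90% of all probe sets were higher without overlap). The transcription factor gene cebpd was at -1.95 ± 0.98 on 1 probe set and -0.24 ± 0.36 on its other. The gene pck1, of glucose synthesis, was at -1.29 ± 0.70. The glucocorticoid receptor gene nr3c1 had 3 probe sets between -0.28 and 0.005.

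Probe sets closest to the members over the 6 arrays were sought by the root mean square difference of log2 levels among those with a single symbol. Probe sets of the same gene and clone-derived names, which contain a colon, were left out. Nearest to the srd5a2a probe set that was higher were upf3b, ntn1b and gnb3b, at 0.42, 0.44 and 0.52, where the median over 10079 probe sets was 2.12. For its second probe set they were top1a, sox3 and surf6, at 0.34 to 0.40. For the shared cyp17a1 probe set they were fech, malt2 and ela3l, at 0.31 to 0.35, and for the other mkrn4, col10a1b and tnnc1a, at 0.38 to 0.41. The nearest 3 of 10079 lie far below the median by how they are chosen, so nothing is read from these distances. The lists for 2 probe sets of 1 gene had no gene in common, but lists of 3 are too short for that to tell anything.

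Of the markers of the tissue and of neighbouring tissues, 0 passed the adjusted test in limma. At an unadjusted p under 0.05 in limma, reached by 4.23% of all probe sets, were 2 probe sets of cyp19a1b. The others at that p were 1 of the muscle gene tnni2a.4 (1.56 ± 0.48) and that of the hindbrain gene hoxb5a (-2.57 ± 0.35). The other tnni2a.4 probe set was at 0.57 ± 0.84. Of the muscle probe sets 4 were higher and 7 lower, with a median of -0.34. Of those of hindbrain and hypothalamus 5 were higher and 3 lower, with a median of 0.28. Since levels are lost, the markers cannot show which tissues the pools held. Over telencephalic markers (11 of 13 genes measured) the mean level ran from -0.20 to 0.02 on the fadrozole arrays and from -0.26 to 0.18 on the control arrays. For the pituitary (5 of 9) it ran from -0.41 to 0.60 on the fadrozole arrays and from -0.67 to 0.20 on the control arrays. For skeletal muscle (6 of 8) it ran from -0.75 to 0.13 on the fadrozole arrays and from -0.32 to 0.23 on the control arrays, and red blood cell markers (5 of 8) lay between -0.24 and 0.21 on all 6 arrays. For genes of hindbrain and hypothalamus (8 of 9) it ran from -0.09 to 0.03 on the fadrozole arrays and from -0.49 to 0.68 on the control arrays, and for the interrenal and gonad (6 of 9), which make steroids outside the brain, from -0.18 to 1.08 on the fadrozole arrays and from -0.58 to 1.16 on the control arrays. For radial glia (6 of 6) it ran from -0.34 to -0.16 on the fadrozole arrays and from -0.01 to 0.21 on the control arrays. That list holds cyp19a1b with 3 of its 8 probe sets, and its median difference was 0.02. Without cyp19a1b, a choice made after seeing the data, the mean of the other 5 probe sets ran from 0.18 to 0.36 on the fadrozole arrays and from 0.009 to 0.32 on the control arrays, with 4 higher and 1 lower.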

How the data were processed

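The authors deposited 1 value per probe set and array as a linear ratio. In all 15617 rows the control values had a median of exactly 1, so each row had been divided by its control median. How the arrays were scanned, scaled and summarised is not given in the sources used here. GEO's platform annotation supplied the symbols, and all 13 member probe sets matched a RefSeq table (GRCz12tu) by gene number with the same symbol. The 115 AFFX probe sets were left out. Log2 ratios were taken with no offset, and each array's shift (its median deviation from the probe-set means, from -0.14 to 0.25) was removed. The test was limma 3.58.1 (lmFit, then eBayes, under R 4.3.3), run over all 15502 probe sets, fadrozole minus control, two-sided, with Benjamini-Hochberg adjustment. A gene-level fit used the mean of a gene's probe sets over 8793 genes. Single values were also tested by exact permutation, which cannot give a p below 0.1. The number of arrays limits the precision, and a filter on dim signals or a background correction could not be applied to ratios.

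All member probe sets are named, with the 4 probe sets of smallest p from each of the lists of steroid synthesis and of receptors and responsive genes, and the 3 most like each cyp17a1 and srd5a2a probe set; of the tissue markers only those with an unadjusted p under 0.05 are named. The genes star, nr3c1 and cyp19a1a were added after their values were seen. The members, lists and pairs were chosen with earlier results of these data known, and the comparison of 2 probe sets of a gene was added after seeing the values. Alternatives covered array scaling, blocks, the variance prior, array weights, 1 value per gene, an offset of 0.1 and leaving out each array. No sequence is printed, as none was among the sources used here.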

Additional observations from a re-analysis of the deposited data

How the results depend on the processing

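No member probe set and no probe set of the whole table passed an adjusted p of 0.05 under any of the 17 alternatives. Of the 13 member probe sets 9 kept their direction under every alternative run for them; 1 value per gene gives none for single probe sets of cyp17a1, srd5a2a and srd5a3. Among these 9, leaving out arrays moved pora from -0.59 to -0.18, hsd11b2 from -0.81 to -0.32, hsd17b10 from 0.10 to 0.27, the second cyp17a1 probe set from -1.58 to -0.61 and the second srd5a3 probe set from -0.55 to -0.27. With arrays left out in turn, the differences that turned ran from -1.44 to 0.010 for the shared cyp17a1 probe set, from -0.34 to 1.04 for the second srd5a2a probe set, from -0.091 to 0.22 for the first srd5a3 probe set and from -0.16 to 1.35 for hsd11b1la. The first srd5a3 probe set also turned with plain median centring (-0.024) and quantile normalisation (-0.11), and no other did outside the leaving out of arrays. Member probe sets at an unadjusted limma p under 0.05 numbered 1, where 4.23% of all 15502 were at that p. With the variance trend, from which nothing is read for the reason given above, there were 0 (srd5a2a at 0.125), against 465 of all probe sets. With array weights there were 2 (tspo and srd5a2a), against 762 of all. With 1 value per gene there were 2 genes (cyp17a1 and srd5a2a), against 4.09% of all genes. With an array left out there were 0 to 2 probe sets, against 638 to 994 of all probe sets. The number was 0 without fadrozole replicate 3 (638 of all) or control replicate 1 (694 of all). The single one was hsd3b2 without fadrozole replicate 1 (678 of all) and tspo without control replicate 2 (994 of all). It was also tspo in the larger slide run alone, where 968 of all probe sets were at that p. Non-overlapping member probe sets numbered 3, but 8 in the larger slide run alone, where 34.1% of all probe sets did not overlap, 3 to 6 with an array left out (15.7% to 22.5% of all probe sets) and 2 with quantile normalisation (3.44%, against 7.83%). Over all genes, 655 probe sets had an unadjusted p under 0.05, against 338 with quantile normalisation, 360 genes with 1 value per gene, and 638 to 994 with an array left out. The causes of these changes were not tested. By construction, fewer arrays make non-overlap more frequent, and the gene-level fit tests fewer features.

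The labels do not say that a replicate number marks a shared batch or day, though replicate 2 of both groups makes up the smaller slide run, and the numbers were not taken to pair the arrays. Deviations of same-numbered arrays from the group means correlated across probe sets at 0.06, 0.19 and 0.09 for replicates 1, 2 and 3, and each array correlated best with its own number in the other group. With the replicate block 842 probe sets had an unadjusted p under 0.05, with 0 past the adjusted p, and 1 of the member probe sets did. For hsd11b1la the block gave 0.60 ± 0.27 with an adjusted p of 0.949 in limma.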
